A study of Danio rerio with 7 samples.

Results

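Hypoxia RNA-seq libraries were examined for 4 genes that encode vasoactive peptides. They were the natriuretic peptide genes nppcl2 (ENSDARG00000116713), nppb (ENSDARG00000052958) and cnp4l (ENSDARG00000097093), and the adrenomedullin gene admb (ENSDARG00000069027). They are 4 of the 25049 genes in the count table. They were picked from the hormone genes that the study found up-regulated by hypoxia, so the hypoxia against normoxia values below describe how they were chosen and carry no test. Wild-type zebrafish larvae were held at 6% O2 (hypoxia, 3 libraries) or at the atmospheric 20.9% O2 (normoxia, 4 libraries) from 81 to 96 hours post-fertilization. Each library was made from poly(A) RNA of a pool of 30 whole larvae. The labels name no transgene, drug or mutation for either group. The study's hypoxia workstation also held CO2 at a constant level, and the CO2 level of the normoxia group is not given. In whole-body RNA, a change in the number of cells that express a gene and a change in RNA per cell cannot be told apart.

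Natriuretic peptides are small ring-shaped hormones. In mammals the atrial (ANP, gene NPPA) and B-type (BNP, NPPB) peptides are secreted by the heart when its wall is stretched, and they lower blood volume and pressure. The C-type peptide (CNP) acts locally, on vessels and growing bone. The peptides bind receptors that are guanylyl cyclases and make cyclic GMP, and a clearance receptor, Npr3, removes them. Adrenomedullin relaxes blood vessels through the receptor Calcrl joined to a Ramp partner protein. Its mammalian gene is a known target of hypoxia-inducible factors.

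The libraries held 67083058 to 69920400 counts in hypoxia and 70275114 to 78235938 in normoxia. At these totals 3 counts correspond to 0.0383 to 0.0447 CPM (counts scaled to a common library size). This range uses the totals alone, while the CPM of genes below also use TMM factors. All 4 members passed the filter on low counts, as did 23716 genes in all. cnp4l passed it only through the hypoxia libraries, where it had 13 to 16 counts, against 0 to 3 in normoxia. All 37 genes matched to heart, endothelium and neuron marker lists had counts in each of the 7 libraries, the lowest count being 3. DEGs had to pass edgeR's quasi-likelihood test at an adjusted p under 0.05 and also exceed 0.6 on the log2 scale in either direction. Of the tested genes, 49.7% met the adjusted p regardless of size. DEGs made up 10.5% of the tested genes. Of all tested genes, 3.07% were DEGs higher in hypoxia and 7.45% were DEGs lower in hypoxia. All 4 members passed these thresholds, as their selection required. The lowest hypoxia value exceeded the highest normoxia value in 3 of the 4 members and in 26.3% of all tested genes. Choosing members as up-regulated favours such separation, so their count describes the choice and tests nothing. In either direction, 52.9% of the tested genes had groups that did not overlap.

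nppcl2, named for its likeness to the C-type peptide gene, had 17.0, 17.6 and 17.3 CPM in the hypoxia libraries, against 8.63, 10.2, 8.71 and 8.97 CPM in the normoxia libraries. The groups were far apart, and the hypoxia pools were nearly level. nppcl2 averaged 17.3 ± 0.305 CPM in hypoxia (SD, n = 3) and 9.11 ± 0.709 CPM in normoxia (SD, n = 4). Its log2 fold change was 0.92 (SE 0.07), a 1.89-fold higher level in hypoxia. The coefficient of variation of nppcl2 was 1.77% between hypoxia libraries, where counting error alone gives 2.96%. Between normoxia libraries it was 7.77%, where counting error alone gives 3.79%.

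cnp4l, a further C-type-like gene, was at the limit of detection. RefSeq's zebrafish annotation (GRCz12tu) held no gene under the name cnp4l, so its gene order and overlaps were not looked up. It had 13, 16 and 15 counts in the hypoxia libraries, against 0, 3, 3 and 0 counts in the normoxia libraries. These are 0.193, 0.251 and 0.223 CPM in hypoxia, against 0, 0.0388, 0.0401 and 0 CPM in normoxia. No normoxia library exceeded the 3-count floor, and each hypoxia library did. cnp4l had 44 counts over the hypoxia libraries and 6 over the normoxia libraries. The ratio of pooled CPM was 11.3 (95% exact interval 4.79 to 32.4, which covers counting error only). The ratio moved to 17.0 without normoxia replicate 3 and to 8.31 without normoxia replicate 4. No fold change fitted by edgeR is given for cnp4l, since at such counts it depends on the prior count.

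nppb, the gene of the B-type peptide, had 1.45, 1.14 and 0.596 CPM in the hypoxia libraries, against 0.674, 0.439, 0.415 and 0.299 CPM in the normoxia libraries. Hypoxia replicates 1 and 2 were above every normoxia library, but hypoxia replicate 3 was below normoxia replicate 1. The groups of nppb therefore overlapped, unlike those of the other 3 members. Behind these values stood 98, 73 and 40 counts in hypoxia, against 49, 34, 31 and 24 counts in normoxia. The exact 95% Poisson interval of hypoxia replicate 3 was 0.426 to 0.811 CPM, and that of normoxia replicate 1 was 0.499 to 0.891 CPM. These intervals overlap, so the order of these libraries was not detectable at this depth. nppb averaged 1.06 ± 0.435 CPM in hypoxia (SD, n = 3) and 0.457 ± 0.157 CPM in normoxia (SD, n = 4), a log2 fold change of 1.22 (SE 0.32) or 2.34-fold. The fold was 1.91 without hypoxia replicate 1 and 2.85 without hypoxia replicate 3.

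admb, 1 of the adrenomedullin genes of zebrafish, had 6.47, 6.91 and 6.14 CPM in the hypoxia libraries, against 3.84, 3.90, 4.62 and 3.79 CPM in the normoxia libraries. The groups did not overlap. Normoxia replicate 3 stood above the other normoxia libraries and still below each hypoxia library. admb averaged 6.51 ± 0.389 CPM in hypoxia (SD, n = 3) and 4.04 ± 0.390 CPM in normoxia (SD, n = 4). Its log2 fold change was 0.69 (SE 0.09), or 1.61-fold. Of the 4 members admb lay closest to the threshold of 0.6, and scaling by library size alone put it at 0.59, just under it. In RefSeq's zebrafish annotation (GRCz12tu) a long non-coding RNA gene overlaps admb. The strand setting of the counting is not stated, so reads of that gene may be among the counts of admb.

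**Figure D1:**
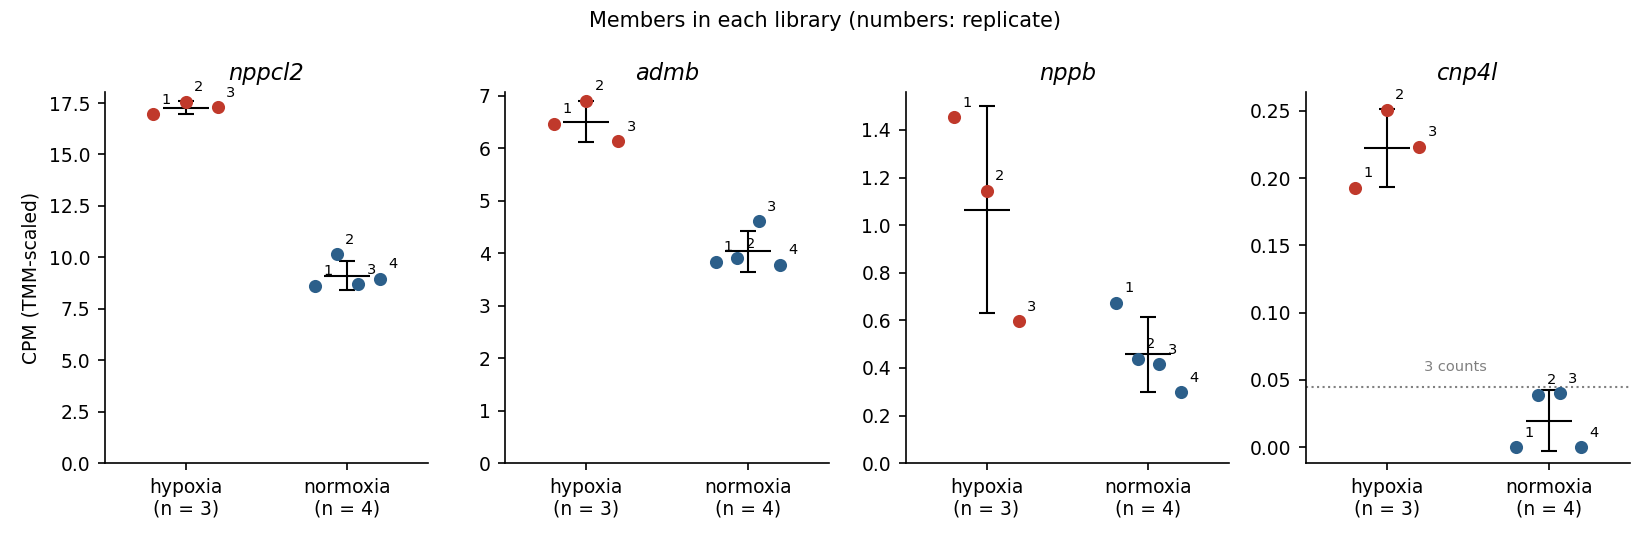
Level of each of the 4 genes in each library, in CPM on TMM-scaled library sizes, with hypoxia (n = 3) to the left of normoxia (n = 4) and a separate vertical axis per gene. Points are libraries numbered by replicate, bars are the mean ± SD, and the dotted line for cnp4l is the highest CPM that 3 counts stand for in any library. The line uses library totals without the TMM factors, so its scale differs slightly from that of the points. The groups overlap only for nppb, where hypoxia replicate 3 (0.596 CPM) lies below normoxia replicate 1 (0.674 CPM).

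The members differed from each other in their spread between pools. edgeR's estimate of the coefficient of variation between replicates was 0.270 for nppb, against a value of 0.154 on the trend over all genes at its abundance. The ratio of these values was 1.75 for nppb. The 95th percentile of this ratio over all tested genes was 1.53 and the median was 0.881. nppcl2 was at 0.0642 with a trend value of 0.0768, and admb was at 0.0808 with a trend value of 0.0952. These genes and cnp4l, at 0.171 with a trend value of 0.200, lay below the trend. The spread of nppb was present in both groups. Its highest library was 2.44 times its lowest in hypoxia and 2.26 times in normoxia, and its coefficient of variation was 40.8% in hypoxia and 34.4% in normoxia. Counting error alone gives 11.9% in hypoxia and 17.0% in normoxia.

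**Figure D2:**
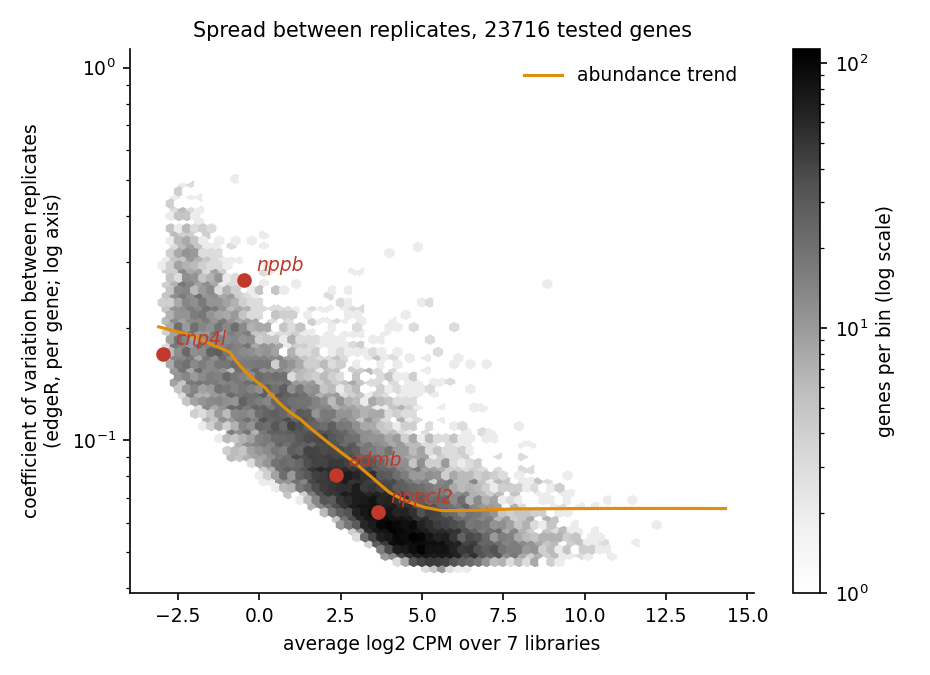
Coefficient of variation between replicates (edgeR, logarithmic vertical axis) against average log2 CPM over the 7 libraries. Grey bins hold the 23716 tested genes, darker where there are more, the line is the trend with abundance, and red points are the 4 members. nppb (0.270) lies well above the line, while nppcl2, admb and cnp4l lie below it.

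nppb stands beside its relatives nppal and nppa in the RefSeq gene order, with clcn6, a chloride transporter gene, next to nppa. These neighbours were looked up after the values had been seen. nppa, the gene of the atrial peptide, had 13.8, 10.2 and 7.31 CPM in the hypoxia libraries, against 9.80, 9.61, 8.52 and 7.95 CPM in the normoxia libraries. Its groups overlapped, and its log2 fold change of 0.22 (SE 0.17) did not pass the test (edgeR, adjusted p = 0.31). Like nppb, nppa was highest in hypoxia replicate 1, and within hypoxia it was lowest in replicate 3. nppal, which RefSeq also lists as anpl and cnp3, had 4.23, 5.20 and 5.08 CPM in the hypoxia libraries, against 3.47, 3.66, 3.24 and 3.41 CPM in the normoxia libraries. nppal rose by 0.49 on the log2 scale (SE 0.10, edgeR, adjusted p = 0.0021), with no overlap between groups and a different order of the hypoxia libraries than nppb. clcn6 was at 0.10 (SE 0.07, edgeR, adjusted p = 0.26).

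Most heart muscle markers differed between the hypoxia libraries in the same order as nppb. Of 16 tested heart muscle markers, 14 were higher in hypoxia replicate 1 than in hypoxia replicate 3, as were 50.2% of all tested genes. In 10 of the 16 hypoxia replicate 1 was the highest and replicate 3 the lowest of the hypoxia libraries, as in 24.5% of all tested genes. These shares of all tested genes pool genes that rose and genes that fell. On the first principal component of log2 CPM (61.7% of variance) the hypoxia libraries stood at 20.3, 38.6 and 53.1. The normoxia libraries stood at −38.2 to −22.2, so hypoxia replicate 1 was nearest to them and replicate 3 farthest. The part of this gradient in the order of the markers was not tested. MYL7, a myosin light chain of the heart, had 22.2, 17.9 and 13.6 CPM in the hypoxia libraries, against 20.1, 21.5, 20.1 and 19.5 CPM in the normoxia libraries. The markers did not share the direction of nppb between groups. Of the 16, 2 were DEGs higher in hypoxia, both of them titin genes, and 3 were DEGs lower in hypoxia (myh6, tnnc1a and TBX5), against 3.07% and 7.45% of all tested genes. At an adjusted p under 0.05 alone, 2 rose and 6 fell, against 24.6% and 25.1% of all tested genes, and the median log2 fold change was −0.17. The mean level of the 17 matched markers relative to normoxia was 0.897 to 1.10 in hypoxia and 0.971 to 1.02 in normoxia. In this mean each gene weighs alike, and it includes a gene listed as TNNI1 (ENSDARG00000000474) that failed the filter on low counts. That gene had 0.148, 0.0940 and 0.209 CPM in hypoxia, against a mean of 0.0876 CPM in normoxia. It thus raised the mean most in hypoxia replicate 3. The summed level of the 17 markers, in which the titin genes weigh most, was 2897 to 3561 CPM in hypoxia and 1900 to 2267 CPM in normoxia. The titin genes alone averaged 1452 and 1367 CPM in hypoxia, against 884 and 771 CPM in normoxia. MYL7 averaged 17.9 CPM in hypoxia and 20.3 CPM in normoxia. Whether each listed marker, the titin genes and actc1a among them, is confined to the heart in whole larvae was not tested. The sum therefore describes mainly these genes and not the markers as a set. The part of the markers in the spread of nppb was not tested.

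The level of nppb was also set against the listed heart muscle markers of the same library. Over the 17 matched markers, the ratio of nppb to the marker was higher in each hypoxia library than in any normoxia library for 11 markers and overlapped between groups for 6, among them both titin genes, a gene listed as MYH6 (ENSDARG00000079564) and RYR2. Against nppa, counts of nppb were 10.5%, 11.2% and 8.15% of the counts of nppa in the hypoxia libraries, against 6.88%, 4.57%, 4.87% and 3.76% in the normoxia libraries. Relative to MYL7 they were 6.55%, 6.41% and 4.40% in hypoxia, against 3.36%, 2.04%, 2.06% and 1.53% in normoxia. Counts of nppa were 62.1%, 57.2% and 54.0% of those of MYL7 in hypoxia, against 48.8%, 44.6%, 42.4% and 40.7% in normoxia. These ratios to nppa and MYL7 did not overlap between groups. All ratios of nppb and nppa were chosen after the values had been seen and are not corrected for gene length, so they compare libraries and not genes, and no test was made of them. nppb was chosen as higher in hypoxia, which favours separation of its ratios to markers that did not rise. The share of all genes with such separated ratios was not computed.

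**Figure D3:**
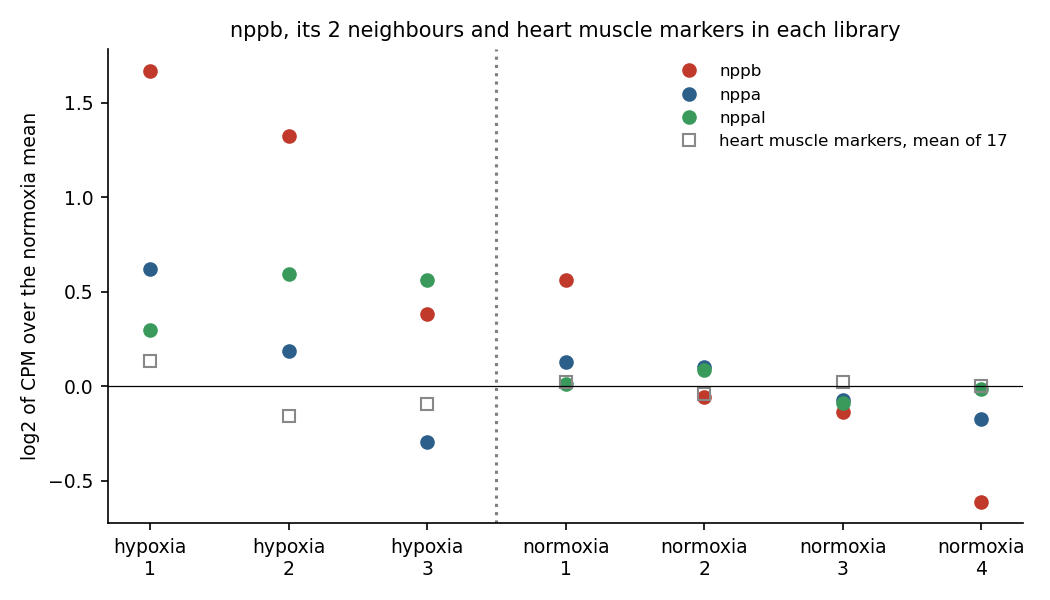
log2 of CPM over the normoxia mean for nppb, its relatives nppa and nppal beside it in the genome, and the mean of 17 heart muscle markers, in the 3 hypoxia libraries (left) and the 4 normoxia libraries (right). nppb and nppa were both highest in hypoxia replicate 1 and, within hypoxia, lowest in replicate 3, while nppal was higher in every hypoxia library than in any normoxia library. The marker mean includes a gene listed as TNNI1 (ENSDARG00000000474) that failed the filter on low counts and raised the mean most in hypoxia replicate 3.

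Other ligand genes of both families were examined where a listed symbol could be paired with a gene. ADM2 aside, these had log2 fold changes between 0 and the threshold of 0.6 that the choice of members required. The symbols cnp2, cnp4, nppc2, nppc4, vnp, calca and iapp found no gene under that name, so the families are covered in part. Of the 7 tested, 5 rose at an adjusted p under 0.05, as did 24.6% of all tested genes, and none was a DEG. Setting apart the members and ADM2, which the study found up-regulated, favours having no DEG higher in hypoxia among the rest. All 7 log2 fold changes were above 0, at 0.22 to 0.49, with a median of 0.39 against −0.0044 for all tested genes. nppc, a C-type peptide gene, had 4.70, 4.29 and 5.14 CPM in hypoxia, against 3.22, 3.37, 3.22 and 3.62 CPM in normoxia (log2 fold change 0.49, SE 0.09, edgeR, adjusted p = 0.0017). nppcl, which RefSeq also lists as cnp1, had 7.46, 7.91 and 8.65 CPM in hypoxia, against 6.16, 6.49, 6.02 and 6.46 CPM in normoxia (log2 fold change 0.35, SE 0.08, edgeR, adjusted p = 0.0031). Neither gene overlapped between groups. Across the threshold of 0.6, the nearest relative below was nppal at 0.49 and the nearest member above was admb at 0.69.

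In the adrenomedullin family, the gene listed as ADM (ENSDARG00000015263) had 5.83, 6.55 and 7.06 CPM in the hypoxia libraries, against 4.93, 4.64, 4.38 and 5.01 CPM in the normoxia libraries. It rose by 0.45 on the log2 scale (SE 0.09, edgeR, adjusted p = 0.0020). CALCB, a gene of calcitonin gene-related peptide, a vasodilator of sensory nerves, rose by 0.39 (SE 0.09, edgeR, adjusted p = 0.0042). adm2a, a gene of adrenomedullin 2, was also at 0.39 but with a larger error (SE 0.18, edgeR, adjusted p = 0.095). The gene listed as ADM2 (ENSDARG00000078875) was taken to be the adm2b among the hormone genes the study chose, since adm2a is listed apart, and so carries no test. It had 0.549, 0.768 and 0.953 CPM in hypoxia, against 0.427, 0.491, 0.254 and 0.523 CPM in normoxia. Its log2 fold change was 0.83 (SE 0.28). The groups did not overlap, but hypoxia replicate 1 and normoxia replicate 4 lay close, on 37 and 42 counts. Their gap was small beside counting error at such counts.

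Most neuron markers rose in hypoxia as well. Of 11 tested, 10 rose at an adjusted p under 0.05, as did 24.6% of all tested genes, and none was a DEG, with a median log2 fold change of 0.35. Their summed level was 3603 to 4159 CPM in hypoxia and 2889 to 3106 CPM in normoxia. Of 9 endothelium markers, 2 rose and 2 fell at an adjusted p under 0.05, shares close to the 24.6% and 25.1% of all tested genes, and none was a DEG, with a median of −0.01. Their summed level was 141 to 155 CPM in hypoxia and 146 to 163 CPM in normoxia. Their part in the ligand values was not tested.

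In the receptor lists, rises and falls at an adjusted p under 0.05 were no more frequent than among all tested genes. Of 14 genes of receptors, their partners and the amidating enzyme, 3 rose and 2 fell at an adjusted p under 0.05, against 24.6% and 25.1% of all tested genes, and none was a DEG. NPR3, the clearance receptor, had 33.1, 33.3 and 35.6 CPM in the hypoxia libraries, against 26.8, 28.4, 28.5 and 28.4 CPM in the normoxia libraries. It rose by 0.28 on the log2 scale (SE 0.05, edgeR, adjusted p = 0.00089). npr1b, a guanylyl cyclase receptor of the type that binds ANP and BNP in mammals, had 14.0, 11.6 and 10.1 CPM in hypoxia, against 14.9, 15.4, 15.2 and 16.7 CPM in normoxia. It fell by 0.39 (SE 0.10, edgeR, adjusted p = 0.0071). Neither of these genes overlapped between groups. The paralogue npr1a was at 0.03 (SE 0.07, edgeR, adjusted p = 0.79), and npr2, the receptor of CNP in mammals, was at −0.03 (SE 0.08, edgeR, adjusted p = 0.82).

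Among the adrenomedullin receptor genes, calcrla fell by 0.27 (SE 0.08, edgeR, adjusted p = 0.017). The gene listed as CALCRL was at −0.30 with a larger error (SE 0.21, edgeR, adjusted p = 0.25). The Ramp partner genes RAMP1, ramp2 and RAMP3 were at 0.03, −0.08 and 0.12 and did not pass the test, nor did CRCP at −0.17. Genes listed as ACKR3, a scavenger receptor that binds adrenomedullin in mammals, were at −0.07 (ENSDARG00000058179) and −0.18 (ENSDARG00000062478) and did not pass it either. CALCR, the calcitonin receptor, rose by 0.38 (SE 0.08, edgeR, adjusted p = 0.0032). PAM, the enzyme that amidates adrenomedullin and other peptides, had 126, 128 and 137 CPM in hypoxia, against 102, 103, 102 and 110 CPM in normoxia. It rose by 0.32 (SE 0.05, edgeR, adjusted p = 0.00038).

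Of 11 tested genes that act below the receptors or process the peptides, 3 rose and 3 fell at an adjusted p under 0.05, shares close to the 24.6% and 25.1% of all tested genes. Of the 11, 1 was a DEG higher and 1 a DEG lower in hypoxia, against 3.07% and 7.45% of all tested genes, and both encode phosphodiesterase 5, which breaks down cyclic GMP. pde5aa had 2.31, 2.30 and 2.53 CPM in the hypoxia libraries, against 1.18, 1.21, 1.32 and 1.66 CPM in the normoxia libraries. Its log2 fold change was 0.82 (SE 0.14, edgeR, adjusted p = 0.00077). The gene listed as PDE5A (ENSDARG00000051915) had 3.41, 3.12 and 2.70 CPM in hypoxia, against 5.65, 4.83, 4.56 and 4.63 CPM in normoxia. Its log2 fold change was −0.68 (SE 0.11, edgeR, adjusted p = 0.00072). These phosphodiesterase genes thus moved in opposite directions, each without overlap.

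The cyclic GMP-dependent kinase genes also differed in direction. prkg1a fell by 0.55 on the log2 scale (SE 0.08, edgeR, adjusted p = 0.00026), and the gene listed as PRKG1 (ENSDARG00000031702) rose by 0.35 (SE 0.06, edgeR, adjusted p = 0.0012). CORIN, which cuts the ANP precursor in mammals, was at −0.15 (SE 0.11, edgeR, adjusted p = 0.31). IDE, a protease that degrades ANP and insulin in mammals, fell by 0.31 (SE 0.05, edgeR, adjusted p = 0.00043). A gene of the convertase furin (ENSDARG00000070971, listed as FURIN) rose by 0.26 (SE 0.07, edgeR, adjusted p = 0.011), and this call was lost when libraries were scaled by size alone.

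**Figure D4:**
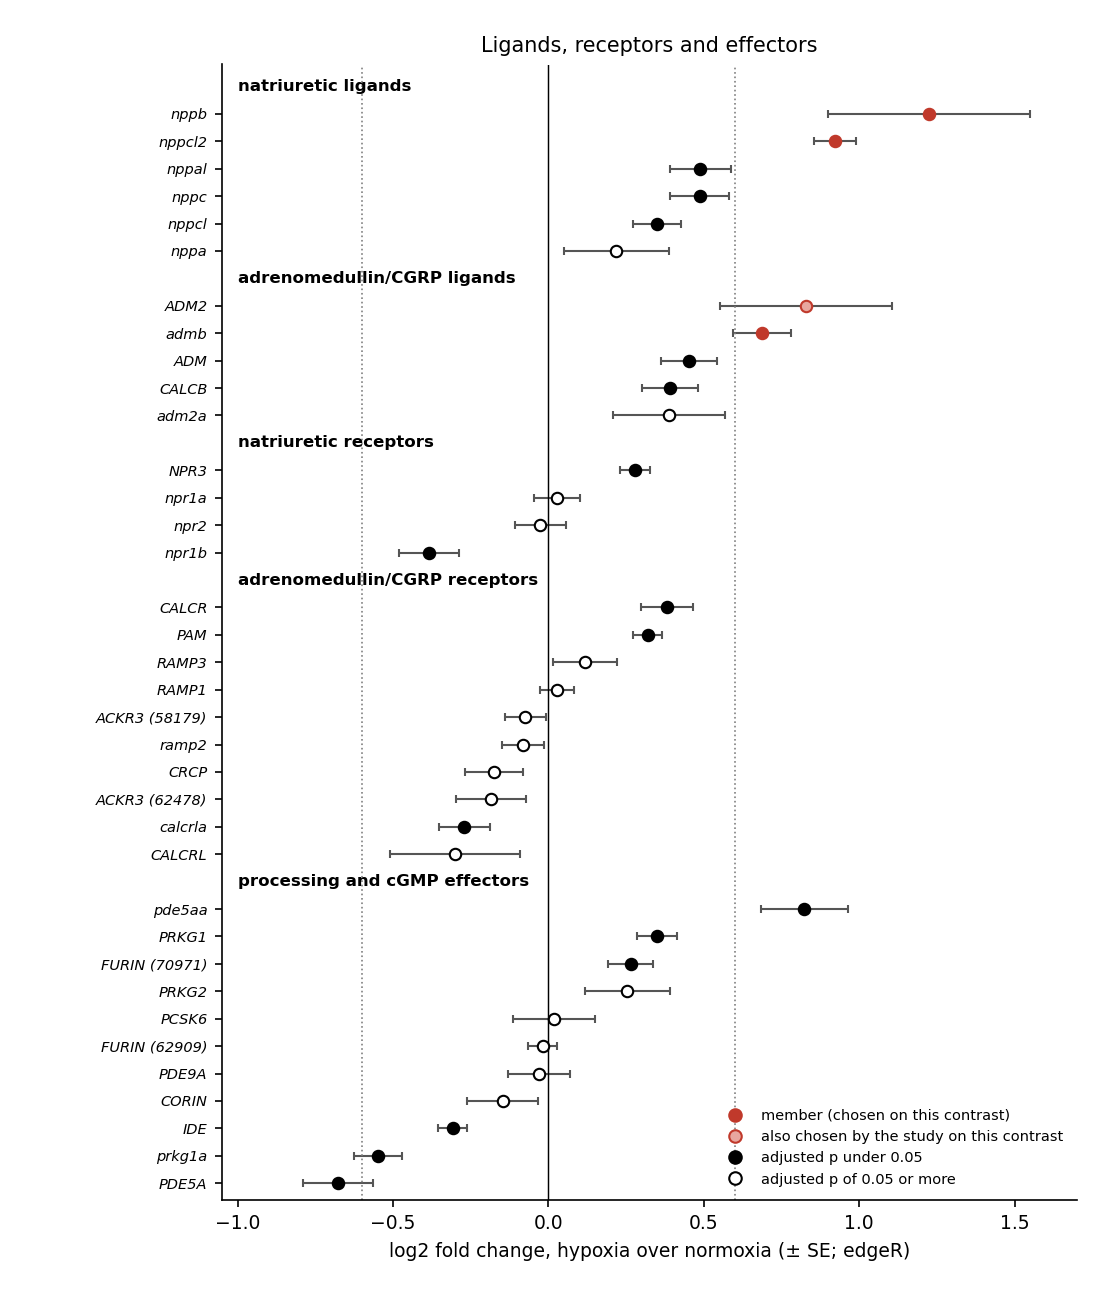
log2 fold change in hypoxia over normoxia (± SE, edgeR) for ligand, receptor and effector genes, with dotted lines at 0.6 in either direction. cnp4l is not drawn. Red points were chosen on this contrast (pale red, ADM2, taken to be a gene chosen by the study), black points have an adjusted p under 0.05 and open points do not. The ligands drawn, those whose symbol found a gene, all lie right of 0, the red and pale red ones because of how they were chosen. Receptors and effectors lie on both sides.

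The genes whose profile over the 7 libraries was most like each member's were found by the root mean square difference in log2 CPM, centred over the libraries, among 19882 genes with a mean of at least 1 CPM. For nppcl2 it was ndufa4b, which encodes a subunit associated with mitochondrial cytochrome c oxidase (difference 0.0553). ndufa4b had 267, 274 and 286 CPM in the hypoxia libraries, against 143, 152, 147 and 145 CPM in the normoxia libraries. For admb it was lingo4a, which encodes a leucine-rich repeat membrane protein (difference 0.0514), with 1.48, 1.54 and 1.49 CPM in hypoxia, against 0.908, 0.943, 1.03 and 0.847 CPM in normoxia.

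For nppb the likeness was looser. The nearest gene was hbae4, an embryonic alpha globin gene (difference 0.259), with 2.89, 2.38 and 2.03 CPM in the hypoxia libraries, against 1.55, 0.995, 0.977 and 0.947 CPM in the normoxia libraries. hbae4 shared with nppb the order of the hypoxia libraries and a high normoxia replicate 1. It was picked for likeness over these same libraries, so the shared pattern describes that choice. For cnp4l the nearest gene was ponzr4 (difference 0.385), with 52.7, 52.4 and 41.9 CPM in hypoxia, against 6.87, 10.2, 8.94 and 8.08 CPM in normoxia. With 0, 3, 3 and 0 counts in normoxia, the log2 profile of cnp4l depends on the prior count of 2, and so does this match. The protein-coding genes around nppcl2 and admb in the RefSeq order that could be paired with an identifier had smaller log2 fold changes than these members. Choosing the members as up-regulated favours this, since 3.07% of all tested genes were DEGs higher in hypoxia, so it tests nothing. Beside nppcl2, eno3, a muscle enolase gene, rose by 0.29 (SE 0.04, edgeR, adjusted p = 0.00026). Near admb, wee1, a cell cycle kinase gene, fell by 0.50 (SE 0.05, edgeR, adjusted p = 7.1e-05), while rnf141 was at 0.19 (SE 0.07, edgeR, adjusted p = 0.052).

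**Figure D5:**
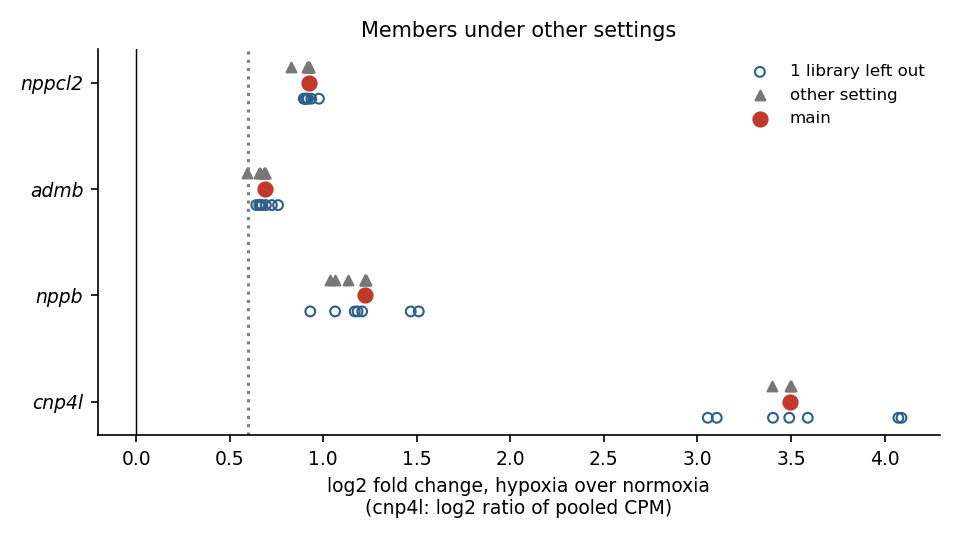
log2 fold change of each member in hypoxia over normoxia (for cnp4l, the log2 ratio of pooled CPM) as reported (red), with 1 library left out (open circles) and under other settings (triangles). For cnp4l the DESeq2 triangle is the log2 fold change fitted by DESeq2. The dotted line marks 0.6. The values ran from 0.90 to 0.98 for nppcl2, 0.64 to 0.76 for admb, 0.93 to 1.51 for nppb and 3.06 to 4.09 for cnp4l when 1 library was left out, and only admb fell under the line, at 0.59, with library size alone.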

How the data were processed

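Poly(A) RNA-seq libraries of 3 hypoxia and 4 normoxia pools of 30 zebrafish larvae were used, grouped by their labels. The authors trimmed reads with Trimmomatic 0.39, aligned them to GRCz11 with STAR 2.7.10 and used featureCounts 2.0.7 to assign them to genes; the deposited values are raw counts, not normalized. Strand setting and treatment of reads mapping to several places are not given in the sources used here.

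The groups were compared by the quasi-likelihood test of edgeR 4.0.16 under R 4.3.3, after filterByExpr and TMM scaling, and p-values were adjusted over 23716 genes by the Benjamini-Hochberg method. The standard error is the absolute log2 fold change divided by the square root of F. CPM used TMM-scaled library sizes (factors 0.951 to 0.977 in hypoxia, 1.02 to 1.04 in normoxia), without correction for gene length. Library profiles were compared as log2 CPM (prior count 2). The script was tested on simulated data. Replicates of a group differed by a chi-square of 7.22 to 21.6 per degree of freedom over genes, far above sampling noise. The p-values set the difference between groups against the spread between these pools.

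The members and lists were chosen with earlier results of these data known. Named were the 4 members, all paired ligand and receptor genes, genes past a threshold or at the end of other lists, and the 1 gene most like each member. Symbols were paired with 23250 of 25049 genes, and 98 genes matched the 110 listed symbols; 1 further gene is not reported here. Symbols in capitals are printed as the name table lists them. The names of the members are the study's own. RefSeq (GRCz12tu) served for synonyms, overlaps and gene order. The comparison was repeated with DESeq2 1.42.0, with its size factors, with library size alone, without a filter, with a minimum of 10 counts per library, with the fold threshold inside the test, with the replicate block, and without each library in turn. An unblocked fit of the block's libraries was added after seeing the data. Sequences were not analysed here.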

Additional observations from a re-analysis of the deposited data

Results flagged for a closer look

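In 26 ligand and receptor genes with 4 normoxia libraries each, 2 libraries stood apart from the others of their group by Dixon's criterion, where chance gives about 1.3. admb was highest in normoxia replicate 3, at 4.62 CPM, against 3.79 to 3.90 CPM in the other normoxia libraries. NPR3 was lowest in normoxia replicate 1, at 26.8 CPM, against 28.4 to 28.5 CPM in the other normoxia libraries. Groups of 3 libraries, which include hypoxia, were not tested.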

How the results depend on the processing

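Every member was higher in hypoxia under every alternative that gave a value, which the choice of members favours and which tests nothing. Scaling by library size only shifted the middle of all tested genes to −0.10 (log2, median), against −0.0044 with TMM. It put nppcl2 at 0.83 (16.6 CPM in hypoxia) and admb at 0.59, under the threshold, and gave 427 DEGs higher and 2484 lower in hypoxia (14.7% higher), against 729 and 1766 (29.2% higher). In the list of other vasoactive genes it gave 1 gene higher and 4 lower at an adjusted p under 0.05, against 2 and 2. With the fold threshold inside the test, 133 genes were higher and 167 lower (300 in all, 44.3% higher). Among them were 2 members, but not nppb and admb, a count that describes how the members were chosen and tests nothing. Leaving out 1 library gave log2 fold changes of 0.90 to 0.98 for nppcl2, 0.93 to 1.51 for nppb and 0.64 to 0.76 for admb, and a log2 ratio of 3.06 to 4.09 for cnp4l. It gave 1847 to 3179 DEGs (576 to 913 higher, 1271 to 2266 lower). Each time 4 members passed, which again describes how they were chosen and tests nothing. The cause of the shifts under these alternatives was not tested. Demanding at least 10 counts in every library removed cnp4l. Among 110 values of other named genes under DESeq2 and library size only, 105 kept their call, 3 gained it (CRCP, ace and AGTR2) and 2 lost it (FURIN and aplnrb), all with library size only.

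Same-numbered libraries deviated together with correlations of 0.190, 0.0520 and 0.0211. Hypoxia replicates 1 and 2 correlated best with the normoxia library of the same number, and hypoxia replicate 3 with normoxia replicate 4 (0.133). Correlations this low cannot decide whether the replicate numbers pair the pools. With the replicate block, 827 genes were higher and 1873 lower (2700 in all), against 817 and 1827 without it in the same libraries, and nppb was at 1.03, against 1.06. At 44 pooled counts in hypoxia and 6 in normoxia, cnp4l is limited by counting error, and no values were compared across genes because gene lengths were not used.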

Other observations

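Other genes of blood pressure control were examined as well. Of 23 tested genes of the endothelin, renin-angiotensin, nitric oxide, urotensin and apelin systems, 1 was a DEG lower in hypoxia and none was a DEG higher, against 7.45% and 3.07% of all tested genes. At an adjusted p under 0.05 alone, 2 rose (APLN and aplnrb) and 2 fell (agt and EDNRB), against 24.6% and 25.1% of all tested genes. agt, the gene of angiotensinogen, had 16.1, 9.90 and 6.52 CPM in the hypoxia libraries, against 25.3, 17.8, 20.8 and 18.0 CPM in the normoxia libraries (log2 fold change −0.92, SE 0.24, edgeR, adjusted p = 0.0084). Its groups did not overlap, and its hypoxia libraries stood in the order seen for nppb, with replicate 1 the highest and replicate 3 the lowest. EDNRB (ENSDARG00000089334), an endothelin receptor gene, fell by 0.57 without overlap (SE 0.12, edgeR, adjusted p = 0.0024). Another gene listed as EDNRB (ENSDARG00000053498) failed the filter on low counts and carries no test. It went the other way, at 0.252, 0.141 and 0.164 CPM in hypoxia, against 0.0826, 0.0129, 0.120 and 0.0498 CPM in normoxia. UTS2, a urotensin gene at the upper end of the list, was at 0.65 with a large error (SE 0.28, edgeR, adjusted p = 0.078). APLN, the gene of the vasodilator apelin, rose by 0.29 (SE 0.05, edgeR, adjusted p = 0.00048), and aplnrb, an apelin receptor gene, rose by 0.30 (SE 0.08, edgeR, adjusted p = 0.011), a call lost with library size alone.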
